A study of Danio rerio with 6 samples.

Results

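The cytosolic ribosome is the particle that translates messenger RNA, and its protein part is built from ribosomal proteins of a large (60S) and a small (40S) subunit, each protein present about once per particle. The genes that encode them were followed here in zebrafish kidney marrow, where adult blood is made. Members were the gene rows whose symbol is rpl or rps followed by a digit, rplp followed by a digit, or rpsa, without the rps6k kinases. The rule found 85 genes among the 31484 gene rows of each table, 47 with a large subunit name and 38 with a small subunit name. The row listed as RPSA2 was taken as rpsa, because the name table writes many zebrafish genes with a human symbol in capitals. Symbols are printed as that table has them.

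The study compared tet2 -/- fish with tet2 wt/wt fish, 3 biological replicates each, at an age between 3 and 5 months. The dissected marrow was broken up by pipetting and passed through a 70 micron mesh, with no sorting step named, and total RNA was sequenced. The labels do not describe the tet2 allele, the sex of the fish or the number of fish behind a library. Tet2 is an enzyme that oxidises methylated cytosines, and human blood cancers often carry mutations in it.

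Ribosomal protein messengers belong to the most abundant of dividing cells, and most start with a run of pyrimidines (the TOP motif) through which the mTOR pathway controls their translation. Blood formation is sensitive to their dose: in humans, loss of 1 copy of RPS19 or of several other members causes Diamond-Blackfan anaemia, in which red cell precursors fail. In zebrafish, heterozygous mutants of many of these genes develop nerve sheath tumours. No sequence of these genes is shown, since none was used here.

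Total counts ran from 41285460 to 49229143 per library, and all 85 members passed the filter on low counts. CPM below are counts per 1000000 scaled by TMM, FPKM are CPM per 1000 bases of summed exon length, and log2 fold changes are tet2 -/- over tet2 wt/wt from edgeR's quasi-likelihood fit. The targeted gene, TET2, had 51.1, 45.1 and 30.5 CPM in tet2 -/- libraries 1 to 3, against 48.1, 52.5 and 48.1 CPM in tet2 wt/wt. Since the allele is not described, this level does not check the labels. Blood markers were present in every library, with 6500 to 11240 CPM of the alpha globin gene hbaa1 in tet2 -/- and 8491 to 12554 CPM in tet2 wt/wt. Egg transcripts, which blood-forming tissue should lack, summed over 23 markers to 819, 516 and 4988 CPM in tet2 -/- libraries 1 to 3, against 16.3, 15.5 and 1334 CPM in tet2 wt/wt.

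The 85 members together took a smaller share of the library in tet2 -/- marrow. They held 9.72%, 9.49% and 9.03% of all counts in tet2 -/- libraries 1 to 3, against 11.7%, 11.2% and 10.8% in tet2 wt/wt libraries 1 to 3. The genotypes did not overlap, and the highest tet2 -/- share lay below the lowest tet2 wt/wt share. The means were 9.41% ± 0.349 in tet2 -/- and 11.2% ± 0.455 in tet2 wt/wt (SD, n = 3 each), a difference of -1.80 percentage points, or 0.839 of the tet2 wt/wt share. Between libraries with the same number the difference was -1.95, -1.73 and -1.73 percentage points. The 95% Wilson interval of a library's share was at most 0.00962 percentage points to either side, which covers counting error only. As a sum over chosen genes, the share was given no test. In whole tissue, fewer cells rich in these messengers and less of them per cell cannot be told apart.

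**Figure D1:**
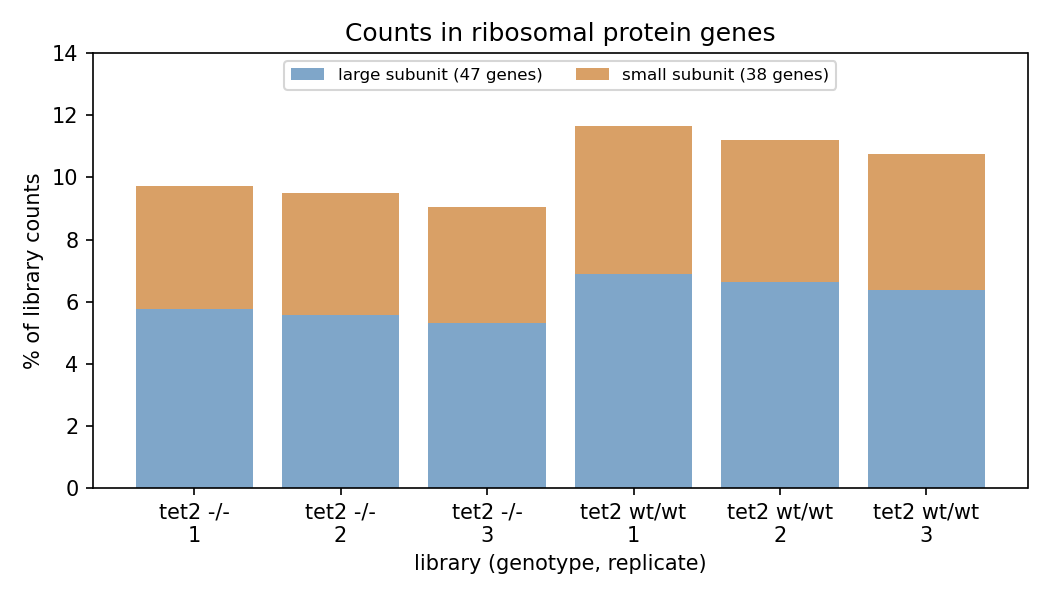
Stacked bars give the percentage of each library's counts that fell on large subunit genes (lower part) and small subunit genes (upper part), for the 3 tet2 -/- and the 3 tet2 wt/wt libraries. The bars of tet2 -/- end between 9.03% and 9.72%, and those of tet2 wt/wt between 10.8% and 11.7%.

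Most members had a log2 fold change close to the median of the group. Of the 85 members, 82 had a log2 fold change below 0, against 48.1% of the 21893 genes tested. Their median was -0.27, a level in tet2 -/- of 0.829 of that in tet2 wt/wt, while the median of all genes tested was 0.02. From the lower to the upper quartile the members spanned 0.07 on the log2 scale, from -0.30 to -0.23, against 0.49 for all genes tested. The members are far more abundant (median 1072 FPKM, against 3.86 FPKM for all genes tested), and genes of like abundance were not compared. In 56 members every tet2 -/- library lay below every tet2 wt/wt library, and in 0 every one lay above. Of all genes tested, 10.3% had such a separation with tet2 -/- lower and 7.88% with tet2 -/- higher. In same-numbered libraries, 79 members were lower in tet2 -/- in all 3 pairs, as were 19.5% of all genes tested.

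No member passed the test by itself. By edgeR's quasi-likelihood test 0 of 85 reached a Benjamini-Hochberg adjusted p under 0.05, where 0.301% of all genes tested did (0.206% lower and 0.0959% higher in tet2 -/-), and adjusted p ran from 0.209 to 0.966. An unadjusted p under 0.05 with tet2 -/- lower was reached by 23 members, against 6.93% of all genes tested, and with tet2 -/- higher by 0 members, against 5% of all genes tested. DESeq2 called 1 member, RPL12, where it called 4.38% of genes, and limma voom called 0, where it called 0.343%. With the replicate number as a block, 0 members were called, where 2.14% of genes were, with the lowest adjusted p at 0.0635 (edgeR, RPL6). With the block, 65 members had an unadjusted p under 0.05, against 8.49% of all genes with tet2 -/- lower. Most members rose and fell together across the libraries, so the counts of members here and above are not independent observations.

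The libraries of 1 genotype also differed among themselves in the level of the median member. Measured as each gene's distance from its own mean over 6 libraries on the log2 scale, the median member stood at -0.05, -0.11 and -0.23 in tet2 -/- libraries 1 to 3. In tet2 wt/wt libraries 1 to 3 it stood at 0.30, 0.10 and 0.00. The distance between the nearest libraries of different genotype, tet2 -/- 1 and tet2 wt/wt 3, was thus smaller than the spread within a genotype (pooled SD 0.13). These levels depend on the TMM factors, which rose from library 1 to 3: 0.966, 0.999 and 1.05 in tet2 -/-, and 0.930, 1.01 and 1.05 in tet2 wt/wt. In the unscaled share of counts the same 2 libraries, at 9.72% and 10.8%, lay further apart than the SD of either genotype (0.349 and 0.455). The median member was lower in tet2 -/- by 0.34, 0.21 and 0.23 in the pairs numbered 1, 2 and 3. Both libraries numbered 3, with the highest egg marker sums in each genotype, had the lowest values of their genotype; the part of egg RNA in this was not tested. Without both of these libraries the median log2 fold change of the members was -0.29.

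**Figure D2:**
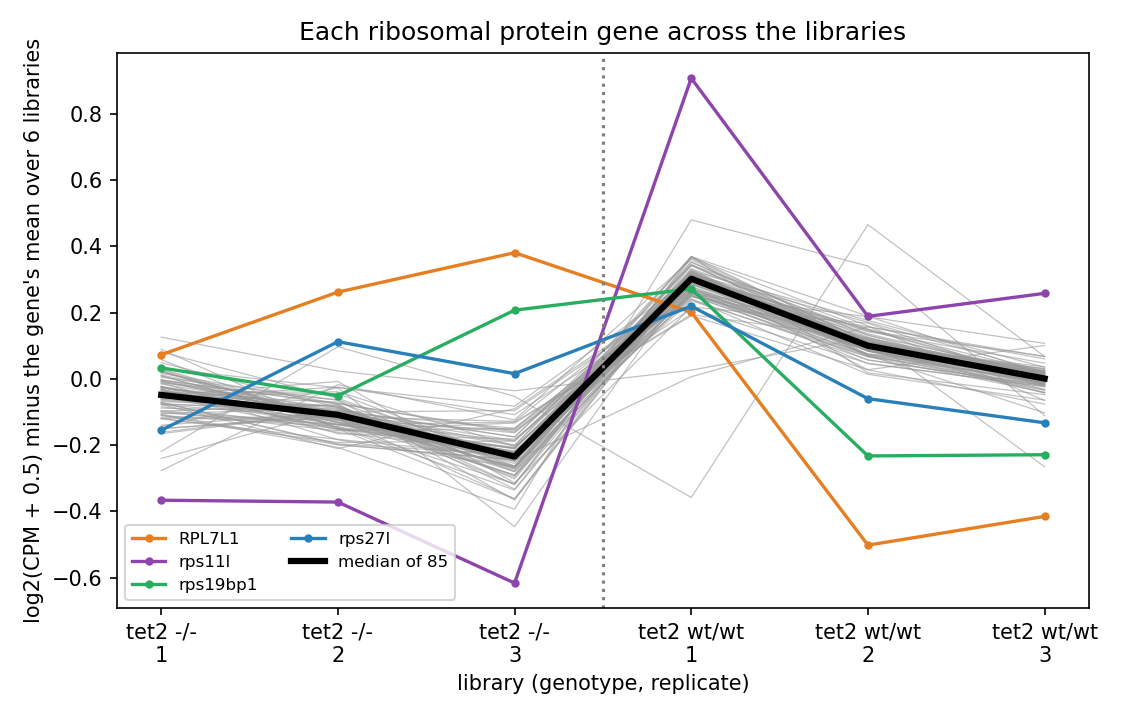
Each line is 1 member, drawn as log2(CPM + 0.5) minus its mean over the 6 libraries, with tet2 -/- left and tet2 wt/wt right. The black line is the median of 85 genes. Most lines follow the median from -0.23 in tet2 -/- 3 to 0.30 in tet2 wt/wt 1, and 4 coloured genes depart from it.

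Among large subunit genes, 46 of 47 were below 0 with a median of -0.27, and 14 had an unadjusted p under 0.05. RPL12 (ENSDARG00000006691, chromosome 5, 32282535 to 32286867 on GRCz10), part of the stalk base to which translation factors dock, had the smallest p of them. It had 1374, 1289 and 1249 CPM in tet2 -/- libraries, against 1768, 1685 and 1594 CPM in tet2 wt/wt. The genotypes did not overlap, at a log2 fold change of -0.37 (SE 0.10, with an adjusted p of 0.215 by edgeR and Benjamini-Hochberg, and adjusted p = 0.0303 by DESeq2). RPL7 (ENSDARG00000007320, chromosome 2, 30193943 to 30198820) had 1670, 1632 and 1448 CPM in tet2 -/-, against 2330, 2056 and 1820 CPM in tet2 wt/wt. Its log2 fold change was -0.39 (SE 0.13, with an adjusted p of 0.311 by edgeR and Benjamini-Hochberg), again with no overlap. RPL8 (ENSDARG00000014867), which lies near the peptidyl transferase centre, had 2097, 1888 and 1599 CPM in tet2 -/-, against 2557, 2212 and 2097 CPM in tet2 wt/wt. RPL6 (ENSDARG00000058451, chromosome 8) had 2405 ± 275 CPM in tet2 -/- and 3089 ± 296 CPM in tet2 wt/wt (SD, n = 3 each), with a log2 fold change of -0.36.

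RPL31 (ENSDARG00000053365, chromosome 9, 56637734 to 56644520), which lies near the exit of the peptide tunnel, had the most negative log2 fold change of the large subunit and a wide spread. It had 936, 875 and 769 CPM in tet2 -/- libraries, against 1408, 1279 and 935 CPM in tet2 wt/wt. The lowest tet2 wt/wt library reached just into the tet2 -/- range, and the log2 fold change was -0.49 (SE 0.17, with an adjusted p of 0.344 by edgeR and Benjamini-Hochberg).

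The 5S particle, in which RPL5 and RPL11 carry the 5S ribosomal RNA into the large subunit, is known in mammals to bind the p53 inhibitor MDM2 when ribosome assembly fails. RPL11 (ENSDARG00000043509, chromosome 19, 44185328 to 44191343) had 1125, 1078 and 1040 CPM in tet2 -/-, against 1533, 1383 and 1254 CPM in tet2 wt/wt. The genotypes did not overlap, and the log2 fold change was -0.36 (SE 0.11, with an adjusted p of 0.276 by edgeR and Benjamini-Hochberg). RPL5 has copies on chromosome 6 (ENSDARG00000015862) and chromosome 2 (ENSDARG00000020197). The chromosome 6 copy had 1177 ± 65.5 CPM in tet2 -/- and 1421 ± 160 CPM in tet2 wt/wt, and the chromosome 2 copy had 1074 ± 133 CPM in tet2 -/- and 1325 ± 142 CPM in tet2 wt/wt. Their log2 fold changes were -0.27 and -0.30, with adjusted p of 0.439 and 0.458 (edgeR, Benjamini-Hochberg). The genotypes did not overlap for the chromosome 6 copy. They did for the chromosome 2 copy, with 1207 CPM in tet2 -/- 1 and 1188 CPM in tet2 wt/wt 3.

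The P stalk, an acidic protein arm that recruits elongation factors, had all 4 genes below 0, at a median of -0.26. RPLP1 (ENSDARG00000021864, chromosome 19) had 1686, 1508 and 1424 CPM in tet2 -/-, against 2033, 1909 and 1794 CPM in tet2 wt/wt, with no overlap (log2 fold change -0.31). Its partner P2 has a gene on chromosome 7, rplp2l, with 752 ± 37.0 CPM in tet2 -/- and 933 ± 96.7 CPM in tet2 wt/wt, and another on chromosome 6, rplp2, with 428 ± 19.5 and 496 ± 28.2 CPM in the same order. RPLP0, which anchors the stalk, had 3075, 2791 and 2450 CPM in tet2 -/-, against 2920, 3241 and 3031 CPM in tet2 wt/wt. The genotypes overlapped, and the pair numbered 1 went the other way (log2 fold change -0.14, SE 0.12).

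Among small subunit genes, 36 of 38 were below 0 with a median of -0.26, and 9 had an unadjusted p under 0.05. RPS12 (ENSDARG00000036875, chromosome 23, 31505425 to 31509391) had 1552, 1420 and 1376 CPM in tet2 -/- libraries, against 2068, 1809 and 1651 CPM in tet2 wt/wt. RPS28 (ENSDARG00000035860, chromosome 2, 24851946 to 24854047) had 579, 641 and 605 CPM in tet2 -/-, against 851, 769 and 693 CPM in tet2 wt/wt. For both the genotypes did not overlap, at log2 fold changes of -0.35 (SE 0.12) and -0.34 (SE 0.12), with adjusted p of 0.338 and 0.317 (edgeR, Benjamini-Hochberg). The gene rps20 (ENSDARG00000036044, chromosome 7) had 1405 ± 84.1 CPM in tet2 -/- and 1776 ± 213 CPM in tet2 wt/wt. RPS2, whose product lines the entry of the messenger channel, had the widest spread within a genotype of the small subunit genes above 100 FPKM. It had 3937, 3779 and 2826 CPM in tet2 -/-, against 4753, 4190 and 3889 CPM in tet2 wt/wt. Its highest tet2 -/- library overlapped tet2 wt/wt, and the log2 fold change was -0.28 (SE 0.16).

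The Diamond-Blackfan anaemia list, taken from human genetics, matched 22 members. Of these, 21 were below 0 at a median of -0.28, and 15 had no overlap between genotypes, with 0 called by edgeR and 9 at an unadjusted p under 0.05. Among all 85 members, 82 were below 0 at a median of -0.27, 56 had no overlap and 23 had such a p. The list thus resembled the members as a whole. For all genes tested, the shares with tet2 -/- lower were 10.3% without overlap and 6.93% at an unadjusted p under 0.05 (edgeR). RPS19 (ENSDARG00000030602, chromosome 16, 24274933 to 24280294), the gene most often hit in that disease, had 839, 778 and 746 CPM in tet2 -/-, against 1083, 937 and 878 CPM in tet2 wt/wt. The genotypes did not overlap, and the log2 fold change was -0.29 (SE 0.12, with an adjusted p of 0.402 by edgeR and Benjamini-Hochberg). RPS14, lost on 1 chromosome in human 5q- syndrome and chosen here after its values were seen, had a log2 fold change of -0.25 (SE 0.11).

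Large and small subunits did not separate. The share of counts was 5.55% ± 0.212 in tet2 -/- and 6.64% ± 0.244 in tet2 wt/wt for large subunit genes, or 0.837 of the tet2 wt/wt share. For small subunit genes it was 3.86% ± 0.139 in tet2 -/- and 4.58% ± 0.211 in tet2 wt/wt, or 0.843. The ratio of large to small subunit counts per 1000 bases was 1.27, 1.26 and 1.26 in tet2 -/- libraries, against 1.26, 1.27 and 1.28 in tet2 wt/wt. The genotypes overlapped, and the means of 1.26 ± 0.00924 in tet2 -/- and 1.27 ± 0.0136 in tet2 wt/wt differed by -0.00718, less than either SD. As a measure over chosen genes, the ratio was given no test.

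**Figure D3:**
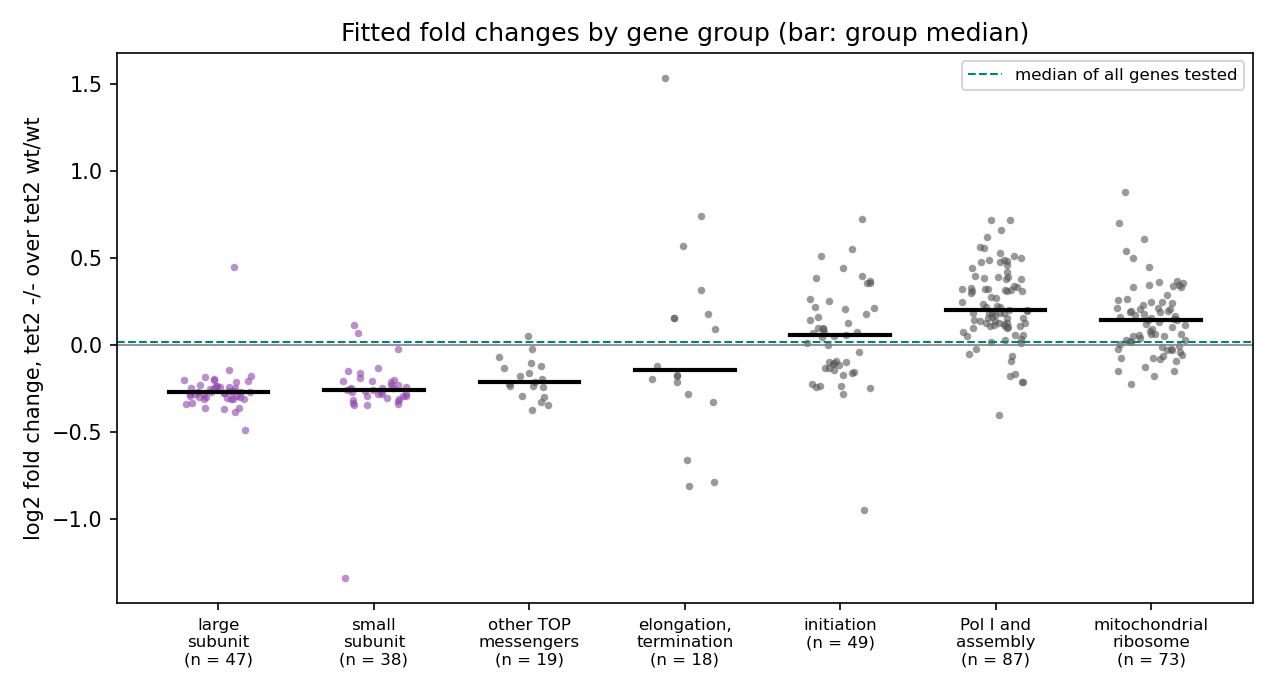
Points are fitted log2 fold changes (tet2 -/- over tet2 wt/wt) of single genes by group, black bars are group medians, and the dashed line is the median of all genes tested. Several genes of the group of other TOP messengers are drawn again among the elongation or initiation factors. Large and small subunit genes sit at medians of -0.27 and -0.26 in a narrow band, and assembly factors lie mostly above 0 at a median of 0.20.

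Only 3 members had a log2 fold change above 0, among them RPL7L1 and rps19bp1. Without rps19bp1, RPL7L1, RPL22L1, rps27l, rps11l and rplp2l, 78 of 79 members were below 0, at a median of -0.27. RPL7L1 (ENSDARG00000042864, chromosome 20, 36772204 to 36776354), a relative of RPL7 that acts in nucleolar processing of pre-ribosomal RNA, had 64.9, 74.0 and 80.4 CPM in tet2 -/- libraries. In tet2 wt/wt it had 70.9, 43.4 and 46.1 CPM. The first tet2 wt/wt library overlapped tet2 -/-, and the log2 fold change was 0.45 (SE 0.21, with an adjusted p of 0.478 by edgeR and Benjamini-Hochberg). The gene rps19bp1 (ENSDARG00000091124, chromosome 6) encodes a protein that binds RPS19 and the deacetylase SIRT1, and carries the name without being a ribosomal protein of the mature particle. It had 28.4 ± 2.67 CPM in tet2 -/- and 26.2 ± 5.65 CPM in tet2 wt/wt (log2 fold change 0.11, SE 0.18). The gene rps27l, on the unplaced scaffold KN150108.1, had 23.8 ± 2.25 CPM in tet2 -/- and 24.2 ± 3.26 CPM in tet2 wt/wt (log2 fold change -0.02, SE 0.15); its human namesake is a p53 target. Without both libraries numbered 3 the value of rps19bp1 was -0.060, and without 1 library that of rps27l lay between -0.10 and 0.080.

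RPL7L1 took 3.74%, 4.34% and 5.26% of the counts of RPL7 and RPL7L1 together in tet2 -/- libraries, against 2.96%, 2.07% and 2.47% in tet2 wt/wt. The genotypes did not overlap in this share, which was not tested. The mean shares of the pairs that follow differed by less. The chromosome 6 copy of RPL5 took 52.4% of the counts of both RPL5 copies in tet2 -/- and 51.7% in tet2 wt/wt. For the P2 genes, rplp2l took 63.7% in tet2 -/- and 65.2% in tet2 wt/wt. The chromosome 6 copy of RPS26 took 75.5% in tet2 -/- and 75.4% in tet2 wt/wt, with log2 fold changes of -0.28 and -0.30 for the chromosome 6 and chromosome 23 copies. Of the 3 RPS27 rows, rps27.1 took 59.5% in tet2 -/- and 59.4% in tet2 wt/wt, and rps27.1 and rps27.2 had log2 fold changes of -0.15 and -0.16, closer to 0 than the median member. RPL22L1, which in zebrafish has an effect on blood stem cell emergence opposite to that of its relative RPL22, took 26.8% of the counts of both genes in tet2 -/- and 26.5% in tet2 wt/wt. RPL22 had 624 ± 38.3 CPM in tet2 -/- and 757 ± 92.4 CPM in tet2 wt/wt, and RPL22L1 had 229 ± 25.6 and 272 ± 22.4 CPM in the same order. How reads shared by near-identical copies were counted is not given in the sources used here, so the division between copies is uncertain.

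**Figure D4:**
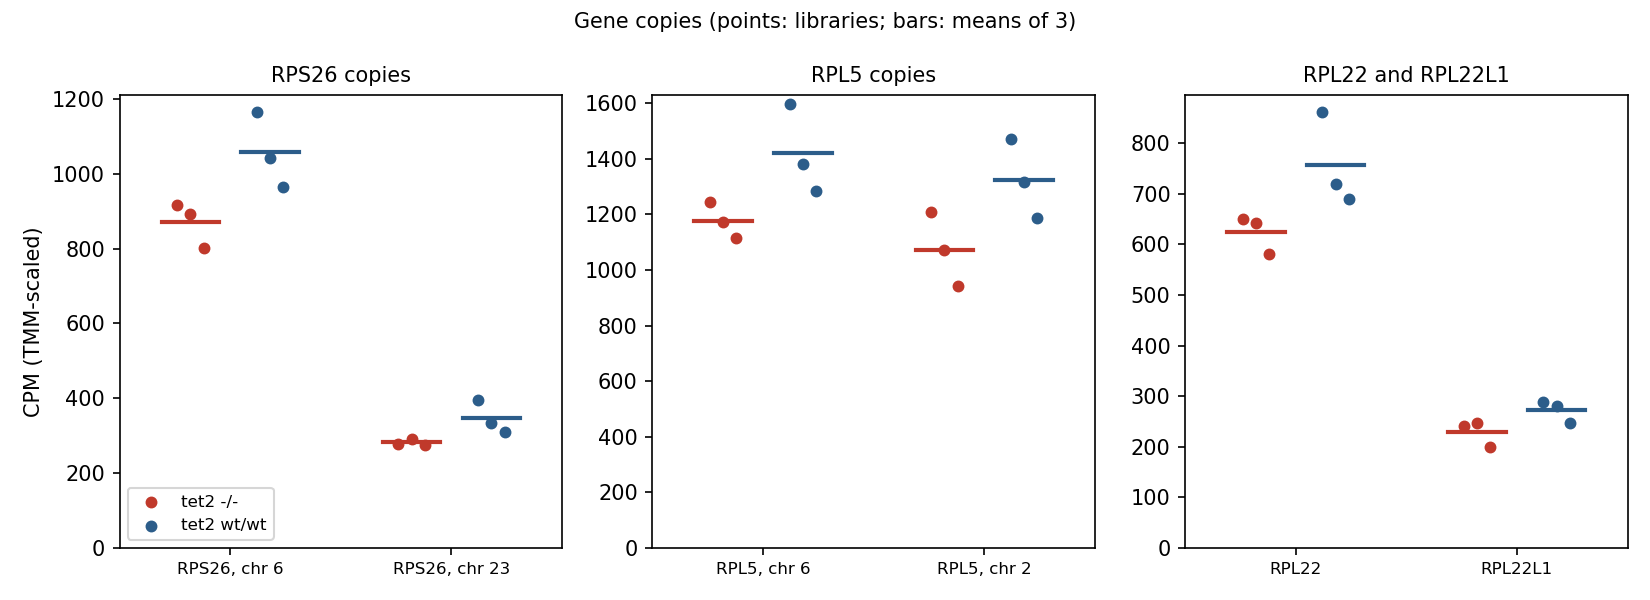
Points give CPM of single libraries and bars the mean of 3 for pairs of related genes, with tet2 -/- left of tet2 wt/wt for each gene. Both RPS26 copies, both RPL5 copies, RPL22 and RPL22L1 have lower means in tet2 -/-, with the RPS26 copy on chromosome 6 at 871 CPM in tet2 -/- and 1059 CPM in tet2 wt/wt.

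The row rps11l (ENSDARG00000093606, chromosome 8, 26683540 to 26684096), which has 1 exon and overlaps tmem51a on the same strand, had 0.800, 0.795 and 0.593 CPM in tet2 -/-, against 2.64, 1.41 and 1.50 CPM in tet2 wt/wt. Its log2 fold change of -1.34 (SE 0.36, with an adjusted p of 0.209 by edgeR and Benjamini-Hochberg) was the most negative of the 85, and it rested on as few as 30 counts in a library.

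Per length, the members stood among the most abundant messengers of the marrow. Of the 100 genes with the highest FPKM, 54 were members, and of the highest 200, 77 were. The median member had 1072 FPKM over the 6 libraries, against 3.86 FPKM for the median of all genes tested. The highest were rps20 with 2687 ± 161 FPKM in tet2 -/- and 3396 ± 406 FPKM in tet2 wt/wt, then RPL26 with 2489 ± 181 and 3000 ± 299 FPKM in the same order. RPS2, RPL6 and RPS12 came next, and from RPL26 to RPS12 neighbours in this order differed by less than the SD of either in both genotypes. Below 100 FPKM stood 5 members, among them rps27l, RPL7L1, rps19bp1 and rps11l. The quartiles of the members lay at 611 and 1661 FPKM, a 2.72-fold span. Summed exon lengths, from 346 to 3569 bases, include every annotated transcript, so FPKM is lower where long transcripts are annotated, such as for RPS24, of 3569 bases, with 258 ± 8.77 FPKM in tet2 -/- and 302 ± 33.1 FPKM in tet2 wt/wt.

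**Figure D5:**
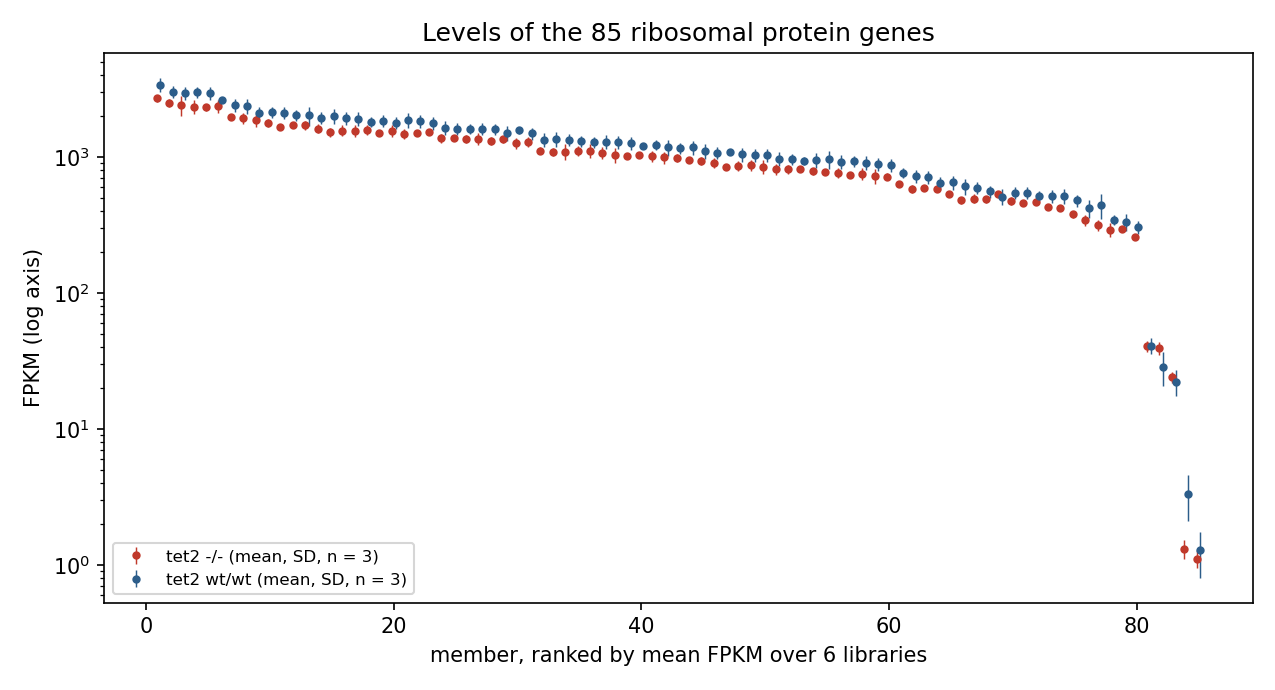
Points give mean FPKM on a log axis with SD over 3 libraries for each of the 85 members, ranked by their mean over all 6, with tet2 -/- left of tet2 wt/wt at each rank. The first 80 members lie above 100 FPKM, mostly with tet2 -/- just below tet2 wt/wt, and the last 5 are at 40.6 FPKM or less.

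The members are scattered over the genome, so they do not share a location. They lie on all 25 chromosomes with at most 7 on any, besides rps27l on a scaffold. Only rplp2 and the chromosome 6 copy of RPS26 are direct neighbours within 100000 bases, 10152 bases apart. In vertebrates, introns of such genes can hold small nucleolar RNA genes, which guide the modification of ribosomal RNA. The overlaps given next compare gene spans only and do not place a gene within an intron. Of the 85 members, 34 overlap another gene, 31 of them on the same strand, and in 13 at least 1 overlapping gene has a named small nucleolar RNA symbol.

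Genes that act with the members were looked at in lists. Some ribosomal proteins fall outside the rule of names. FAU, the source of the small subunit protein RPS30, had 649, 640 and 577 CPM in tet2 -/-, against 884, 782 and 709 CPM in tet2 wt/wt, without overlap (log2 fold change -0.35, SE 0.12). RACK1, a scaffold on the small subunit, had 1945 ± 181 CPM in tet2 -/- and 2301 ± 236 CPM in tet2 wt/wt (log2 fold change -0.24, SE 0.13). Of 19 other genes known to have a TOP messenger, FAU and RACK1 included, 18 were below 0 at a median of -0.21. In this list edgeR called 0, and 4 were lower in tet2 -/- at its unadjusted p under 0.05. Of all genes tested, 48.1% were below 0, edgeR called 0.301%, and 6.93% were lower at such a p. In 7 of the 19 every tet2 -/- library lay below every tet2 wt/wt library, against 10.3% of all genes tested. Summed CPM of the list overlapped between genotypes, at 36300, 33572 and 30025 in tet2 -/-, against 41135, 37598 and 35460 in tet2 wt/wt. In this list BTF3, part of the complex that meets nascent peptides, had 832 ± 50.0 CPM in tet2 -/- and 1078 ± 59.0 CPM in tet2 wt/wt. Its log2 fold change was -0.37 (SE 0.10, with an adjusted p of 0.223 by edgeR and Benjamini-Hochberg). DESeq2 called BTF3 alone in this list, at an adjusted p of 0.0313, where it called 4.38% of all genes. Several genes of this list, EEF1D among them, are also counted in the initiation or elongation lists given further on.

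Genes of the machinery that builds ribosomes mostly had values on the other side of 0. Of 87 RNA polymerase I and ribosome assembly genes, 78 were above 0 at a median of 0.20, with 0 called by edgeR. By edgeR's unadjusted p under 0.05, 10 were higher and 1 lower in tet2 -/-, against 5% and 6.93% of all genes tested. DESeq2 called 3, of which 2 were higher and 1 lower, where it called 4.38% of genes. In all 3 same-numbered pairs 17 of the 87 were higher in tet2 -/-, as were 4468 of the 21893 genes tested. RCL1, a factor of small subunit processing, had 43.1, 51.3 and 55.7 CPM in tet2 -/-, against 29.1, 33.6 and 28.6 CPM in tet2 wt/wt. The genotypes did not overlap (log2 fold change 0.72, SE 0.14; edgeR, Benjamini-Hochberg adjusted p = 0.109). Among the 9 below 0, nop53, a large subunit assembly factor, had 214, 205 and 214 CPM in tet2 -/-, against 279, 272 and 286 CPM in tet2 wt/wt (log2 fold change -0.41, SE 0.10; edgeR, Benjamini-Hochberg adjusted p = 0.161). For the assembly genes as a group, the libraries did overlap between genotypes: their summed CPM was 7697, 8284 and 8175 in tet2 -/-, against 8602, 7179 and 6663 in tet2 wt/wt. Here too tet2 wt/wt 1 was the highest library, and the pair numbered 1 went the other way.

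Mitochondrial ribosomal protein genes, which serve the organelle's own ribosome, had 55 of 73 above 0 at a median of 0.14, with 0 called by edgeR and 2 higher at an unadjusted p under 0.05, where 5% of all genes tested were. Their summed CPM was 1731, 1962 and 1955 in tet2 -/- libraries, against 2109, 1580 and 1493 in tet2 wt/wt. The genotypes overlapped, with tet2 wt/wt 1 the highest of the 6 libraries, so the pair numbered 1 went the other way. MRPS23 had 19.4 ± 7.22 CPM in tet2 -/- and 10.5 ± 2.36 CPM in tet2 wt/wt, and mrpl20 had 24.6 ± 4.72 and 16.1 ± 4.16 CPM in the same order. Initiation factors had 29 of 49 above 0 (median 0.06), and elongation and termination factors had 10 of 18 below 0 (median -0.15), with 0 called by edgeR in both lists. DESeq2 called 0 of the mitochondrial, initiation, elongation and regulator lists. By edgeR's unadjusted p under 0.05, 5 of the 49 initiation factors were higher and 1 lower in tet2 -/-. Of the 18 genes in the elongation and termination list, 2 were lower, EEF1D and the kinase EEF2K, which is not itself such a factor. Of all genes tested, 5% were higher and 6.93% lower at such a p, and edgeR called 0.301%. The initiation factors with the smallest p were pabpc1b, with 45.0 ± 18.7 CPM in tet2 -/- and 86.9 ± 7.12 CPM in tet2 wt/wt, and EIF3J (ENSDARG00000053370), with 48.3 ± 4.68 and 37.7 ± 4.34 CPM in the same order. EEF2K, the kinase that slows elongation, had 51.2 ± 4.71 CPM in tet2 -/- and 88.5 ± 28.6 CPM in tet2 wt/wt, and EEF1D had 156 ± 4.67 and 196 ± 19.0 CPM in the same order. Regulators of ribosomal protein output (MYC, mTOR and their partners) had 9 of 13 below 0 (median -0.05), with 0 called and 0 at an unadjusted p under 0.05. LARP1, which binds TOP messengers, had 120 ± 20.7 CPM in tet2 -/- and 96.3 ± 11.7 CPM in tet2 wt/wt, and EIF4EBP3 (ENSDARG00000041607) had 117 ± 24.1 and 146 ± 9.54 CPM in the same order.

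Markers of some cell types in the suspension also differed in value between genotypes, and their part in the level of the members was not tested. All 6 progenitor markers were below 0 (median -0.37), and their summed CPM was 537, 416 and 407 in tet2 -/-, against 694, 606 and 554 in tet2 wt/wt. The log2 fold changes of the 6 ran from -0.83 to -0.24, with 0 called by edgeR and 2 lower at its unadjusted p under 0.05. Of all genes tested, 6.93% were lower at such a p. From this list KIT and MYB are named by choice, outside the naming rule. KIT had 12.0 ± 3.19 CPM in tet2 -/- and 21.3 ± 4.86 CPM in tet2 wt/wt, and MYB had 324 ± 55.0 and 447 ± 60.1 CPM in the same order. Erythroid markers had 6 of 7 below 0 (median -0.28), lymphoid markers 5 of 9 (median -0.11), myeloid markers 4 of 8 (median 0.00) and thrombocyte markers 2 of 3 (median -0.26). The summed erythroid CPM overlapped between genotypes, at 15161, 14553 and 8933 in tet2 -/-, against 11971, 14555 and 16603 in tet2 wt/wt. Only 1 of the 7 erythroid markers was lower in tet2 -/- in all 3 same-numbered pairs. Kidney tubule markers summed to between 320 and 430 CPM in tet2 -/-, against 567 to 842 CPM in tet2 wt/wt, and skeletal muscle markers to between 30.9 and 71.5 CPM, against 158 to 216 CPM. Egg markers had 23 of 23 above 0, at a median of 2.20, which was 4.005 with the replicate block and 4.26 by limma voom. Liver markers summed to 18.9, 1941 and 70.4 CPM in tet2 -/- libraries, against 42.7, 633 and 111 CPM in tet2 wt/wt, so only the pair numbered 2 was higher in tet2 -/-. Their median was 1.33 with 8 of 8 above 0, but -0.069 with the replicate block, where 4 of 8 were below 0, and -0.19 by limma voom, where 5 of 8 were. No listed marker was at 0 in all libraries of a genotype. Of 11 tubule markers 8 were below 0 and 2 were called, SLC5A12 and cltrn, at adjusted p of 0.0405 and 0.0430 (edgeR, Benjamini-Hochberg). With the replicate block edgeR called 6 tubule, 4 muscle and 3 egg markers and 0 of the blood and progenitor markers, and DESeq2 called 6 tubule, 7 muscle, 0 egg and 1 erythroid marker. Over all genes, edgeR called 0.301% without the block and 2.14% with it, and DESeq2 called 4.38%.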

How the data were processed

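The deposited tables, from 3 tet2 -/- and 3 tet2 wt/wt libraries, hold whole-number counts for each Ensembl gene with no normalization. Trimmomatic 0.36, STAR 2.5.2b and the GRCz10 build are named in the submitters' processing notes. How reads were counted, with what strand setting and with what rule for multiple matches, is not given in the sources used here. A name table paired 25752 of 31484 gene IDs (81.8%) with symbols, and listed names were also matched through RefSeq synonyms (GRCz12tu). Members and gene lists were chosen with earlier results of these data known.

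Tests ran in R 4.3.3 with edgeR 4.0.16 (filterByExpr, TMM, two-sided quasi-likelihood F test, Benjamini-Hochberg over all 21893 genes tested). A run on simulated counts used larger fold changes than those of the members, so it does not bear on differences of their size. DESeq2 1.42.0 and limma 3.58.1 (voom) were alternatives. Named members are those with the smallest p by subunit, the largest separated differences, the highest and lowest FPKM, the widest spread, gene copies, and RPS19, RPL5 and RPL11; RPS14 and RPS24 were added after their values were seen. A few genes that the rule names are not reported here. In each list of translation and assembly genes the 2 genes with the smallest p are named.

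Same-numbered libraries deviated together across 17535 genes (r = 0.422, 0.586 and 0.707 for numbers 1, 2 and 3). Between libraries of different number and genotype, r ran from -0.531 to 0.166. Deviations were taken from each genotype's mean and sum to 0 over its 3 libraries, so these r are not independent. The number was therefore also fitted as a block. That pairing comes from the data, not from the labels.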

Additional observations from a re-analysis of the deposited data

How the results depend on the processing

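The direction of the members' median log2 fold change held under every alternative run, from -0.34 to -0.19 when 1 library was left out and at -0.27 with the replicate block. It was -0.26 with library totals in place of TMM factors, an alternative chosen after seeing the data. The count of members called was 0 under every alternative but DESeq2, where it was 1. The count of all genes called, 66, was 950 by DESeq2, 468 with the replicate block, 312 without both libraries numbered 3, 36 with library totals, and from 2 to 15 when 1 library was left out. The difference in share was -2.59 percentage points when counts per 1000 bases were summed. The difference in the large to small ratio was 0.00485 with medians in place of sums. Directions turned for 2 named genes near 0, rps27l (-0.10 to 0.080 without 1 library) and rps19bp1 (-0.060 without both libraries numbered 3). The median of the initiation factors ran from -0.026 to 0.10 and that of the regulators from -0.15 to 0.020 over all alternatives, so neither has a settled sign. The cause was not tested. With 3 libraries per genotype and an SE near 0.12, a difference of the members' size did not reach the threshold for any of them in the edgeR fit.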
